A study of Caenorhabditis elegans with 30 samples.

Results

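Mutants of *flor-1* were compared with mutants of *old-1* in the 12 of the 30 libraries of the series that are labelled as either mutant, 6 libraries a strain. FLOR-1 is a receptor pseudokinase and OLD-1 a receptor tyrosine kinase, both of the KIN-16 family, and both are needed for *Caenorhabditis elegans* to switch on its oomycete recognition response in the epidermis. RNA was extracted from whole hermaphrodites that had been grown from bleached embryos on *E. coli* OP50 at 20 °C and were labelled L4, the last larval stage. Each strain was sequenced in 3 libraries with an extract of the oomycete *Myzocytiopsis humicola* added before collection and in 3 libraries without it. The groups were therefore *flor-1(icb93)* with extract, *flor-1(icb93)* untreated, *old-1(ok1273)* with extract and *old-1(ok1273)* untreated. The *icb93* allele came from a chemical mutagenesis screen and is listed in the study only together with the *icbIs5* reporter, which places GFP under the *chil-27* promoter and mCherry under the *col-12* promoter. The *ok1273* allele is a deletion that the study lists both with and without that reporter, and the labels do not say which strain was sequenced. Nothing in the labels says that the 3 libraries of a group came from separate cultures, so p-values measure only the spread between these libraries.

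Hermaphrodites pass from the fourth larval stage to adulthood through a last molt, and several tissues change with it. The germline makes sperm in the last larval stage and then switches to oocytes, the intestine starts to secrete yolk proteins that are taken up by oocytes, and the epidermis stops making larval cuticle and lays down an adult cuticle with its own collagens. The heterochronic genes, with the transcription factor LIN-29 acting last, time this change in the epidermis.

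The strains differed in their libraries as well as in genotype. Depth was 23648209 to 38956390 counts in the *flor-1(icb93)* libraries and 23186946 to 27585142 in the *old-1(ok1273)* libraries. The gap between transcript length and effective length, which grows with the length of the sequenced fragments, was 154.6 to 165.43 bases in *flor-1(icb93)* libraries, 248.66 to 251.24 bases in *old-1(ok1273)* libraries and 239.79 to 273.44 bases in the other 18 libraries. Genes with at least 1 count numbered 17981 to 18400 in *flor-1(icb93)* and 17244 to 17478 in *old-1(ok1273)*. Strain, stage of the animals and type of library fall together in these 12 libraries, so that their shares in any difference below cannot be told apart.

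Expression was given as CPM, the counts scaled to an equal library total, and the strains were tested with extract as a covariate (quasi-likelihood test of edgeR). A gene was called at p under 0.01 with a Benjamini-Hochberg adjusted p under 0.1. Fold changes are log2 values of *flor-1(icb93)* over *old-1(ok1273)*, given with their standard errors (SE). Of 16619 genes tested, 11338 (68.2%) were called, 5866 (35.3%) higher and 5472 (32.9%) lower in *flor-1(icb93)*. Counts of called genes in the lists below are to be read against these shares. On log2 TPM, a scale per transcript length with no further scaling between libraries, limma called 9039 genes higher and 2639 lower, and the median over all genes moved by 0.30. When a log2 fold change of 1 or more in either direction was also asked for, 4162 genes (25%) were called, 2835 higher and 1327 lower. In 8880 genes (53.4%) the 6 *flor-1(icb93)* libraries did not overlap the 6 *old-1(ok1273)* libraries, so that lack of overlap alone sets no gene apart.

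All 6 yolk protein genes were higher in *flor-1(icb93)*, with a median log2 fold change of 9.29. *vit-2* had 825 CPM at the lowest, 930 at the median and 1193 at the highest over the 6 *flor-1(icb93)* libraries, against 0.992, 1.27 and 1.44 CPM over the 6 *old-1(ok1273)* libraries. The fold change of *vit-2* was 9.41 ± 0.11 (log2, SE), with an adjusted p of 3.5e-17 by edgeR's quasi-likelihood test and no overlap between the strains. *vit-6*, which encodes the precursor of the smaller yolk proteins, had 1276, 1492 and 1724 CPM in *flor-1(icb93)* (lowest, median and highest) against 0.992, 2.17 and 3.64 CPM in *old-1(ok1273)*. *vit-3*, *vit-4* and *vit-5*, which are near-identical so that reads may be divided wrongly among them, averaged 402, 316 and 273 CPM over *flor-1(icb93)* libraries, against averages of 0.147, 0.532 and 0.0259 CPM over *old-1(ok1273)* libraries. *vit-1* differed least, with a fold change of 4.74 ± 0.21 on the log2 scale. Per transcript length, *vit-6* was the most abundant in *flor-1(icb93)* at 270.1 ± 30.9 TPM (SD, n = 6), followed by *vit-2* at 180.6 ± 23.8 TPM, *vit-3* at 75.7 ± 7.16 TPM, *vit-4* at 59.6 ± 5.95 TPM, *vit-5* at 52.1 ± 4.55 TPM and *vit-1* at 29.04 ± 3.63 TPM. In that order the ranges of mean ± SD overlapped for *vit-4* and *vit-5*, and for no other neighbours.

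The yolk gene level varied over the whole series. The mean log2(CPM + 0.5) of the 6 genes was 8.68 to 9.02 in *flor-1(icb93)* and 0.16 to 0.80 in *old-1(ok1273)*. Animals with the *dpy-7p::old-1* transgene, which expresses *old-1* from an epidermal promoter, had 12.15 to 13.01, and their hygromycin marker controls 12.63 to 13.41. Wild-type N2 with extract stayed at 0.74 to 0.90, while the 3 untreated N2 libraries had 0.85, 7.10 and 7.98. All of these groups are labelled L4. The yolk gene level thus differed between libraries with the same stage label, and the libraries of *flor-1(icb93)* lay between those of *old-1(ok1273)* and those with the *dpy-7p::old-1* transgene. Animals overexpressing *old-1* from its own promoter (*old-1p::old-1*) had 9.08 to 12.23. Their non-transgenic controls had 6.11 to 10.45, a range that holds *flor-1(icb93)*. Other lists had other orders, with major sperm protein genes at 5.88 to 6.15 in *flor-1(icb93)* and 6.02 to 6.23 in *dpy-7p::old-1*.

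**Figure D1:**
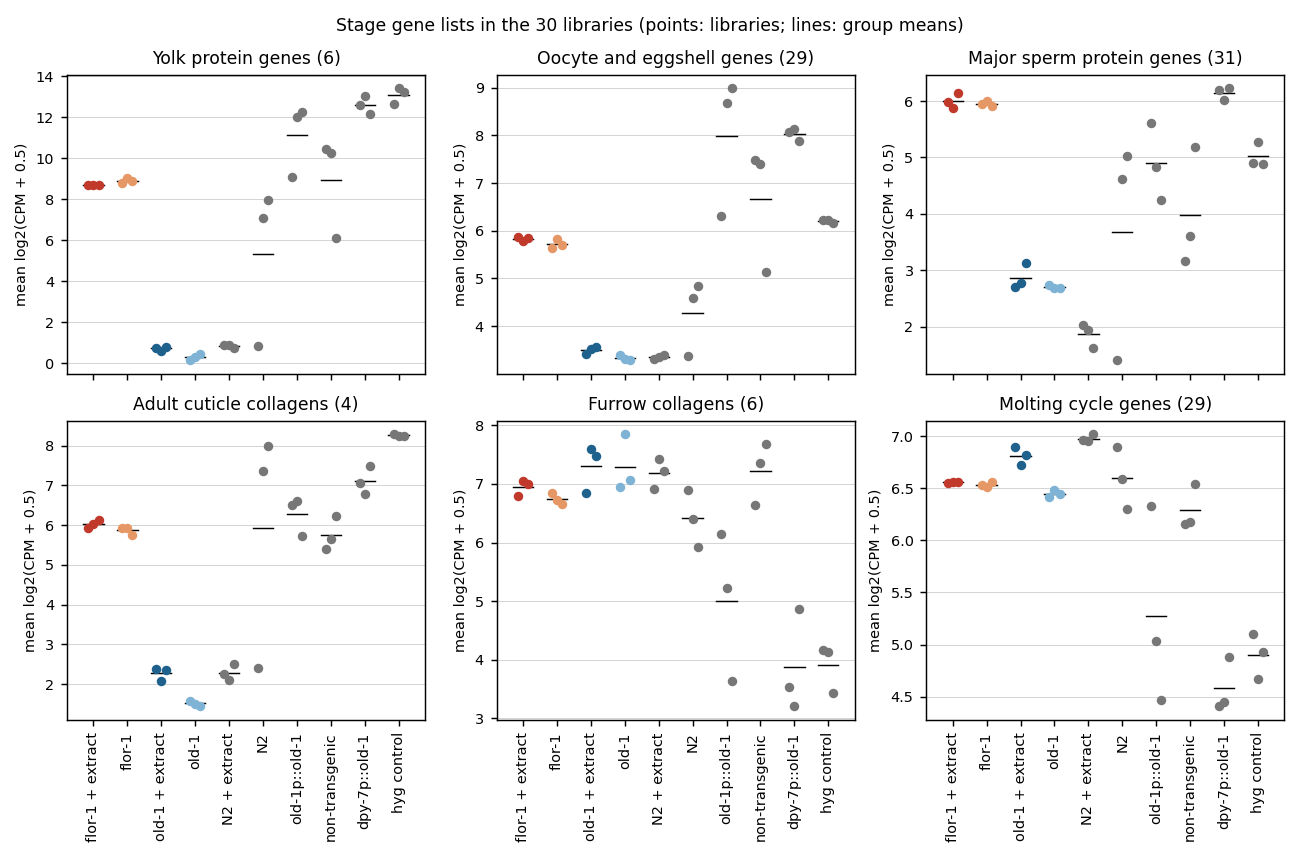
Mean log2(CPM + 0.5) of 6 gene lists (y axis) in each of the 30 libraries, grouped along the x axis, with points for libraries and lines for group means. For yolk protein genes the 6 *flor-1* libraries sat between 8.68 and 9.02 and the 6 *old-1* libraries between 0.16 and 0.80.

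Oocyte and eggshell genes were higher in 28 of 29 cases, with a median log2 fold change of 1.90. *perm-2*, whose product is needed for the permeability barrier of the eggshell, had 59.3, 66.2 and 81.8 CPM in *flor-1(icb93)* against 0.0369, 0.121 and 0.181 CPM in *old-1(ok1273)* (lowest, median and highest of 6). The strains did not overlap for *perm-2*, whose log2 fold change was 8.94 ± 0.16. Smaller differences were found for *cpg-3*, an eggshell chondroitin proteoglycan (3.69 ± 0.09), and for the RNA-binding genes *puf-5* (3.70 ± 0.10) and *pos-1* (2.80 ± 0.08), which act in oocytes and early embryos. The exception was *lin-41*, which encodes an RNA-binding protein of oocytes and larval epidermis, with 69.4 to 80.8 CPM in *flor-1(icb93)* against 96.3 to 114 CPM in *old-1(ok1273)* and a fold change of -0.64 ± 0.06. The call of *lin-41* was lost on log2 TPM, where its value was -0.12.

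Germline genes outside oocyte maturation rose less. Of 37 genes for germline stem cells, meiosis and P granules, 31 were higher and 2 lower, with a median of 0.60. *gld-1*, a translational repressor of the germline, had 306, 370 and 397 CPM in *flor-1(icb93)* against 53.0, 59.5 and 81.6 CPM in *old-1(ok1273)*. *cgh-1*, an RNA helicase of germ granules, averaged 763 CPM in *flor-1(icb93)* and 145 CPM in *old-1(ok1273)*, while the Argonaute gene *csr-1* and the synaptonemal complex gene *syp-1* each had a log2 fold change of 1.1. The 2 genes that were lower, named after their values were seen, were *sygl-1* (-0.53), a gene of the germline stem cell pool, and *htp-1* (-0.26), a chromosome axis gene whose value was 0.16 on log2 TPM. In whole animals, more germ cells and more RNA per germ cell cannot be told apart.

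All 29 major sperm protein genes tested, which encode the cytoskeletal protein of the crawling sperm, were called higher with a median of 3.31 and a lowest value of 2.77. These genes are near-identical copies, so the family total is the safer measure, and it was 2984, 3180 and 3675 CPM in *flor-1(icb93)* against 270.7, 277.8 and 388.6 CPM in *old-1(ok1273)* (lowest, median and highest). Of the single copies, *msp-40* had 195.4 to 257.7 CPM in *flor-1(icb93)* against 16.4 to 21.4 CPM in *old-1(ok1273)*. Major sperm protein transcripts are short, with a median length of 384 bases, and with offsets for effective length their median fold change was 2.73, all 29 still called. None of them is left when transcripts under 500 bases are removed.

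Among 61 other sperm genes, 59 were higher, with a median of 2.63. They included *sss-1* (3.97 ± 0.09), *spe-54* (3.48 ± 0.08) and the sperm phosphatase gene *gsp-4* (2.57 ± 0.07). After removal of short transcripts, 32 of 34 were higher. The 2 lower genes, named after their values were seen, act earlier, in the decision of germ cells to become sperm. They were *fog-1*, an RNA-binding regulator of that decision (-1.45), and *fog-3* (-0.16). The call of *fog-3* was lost when any of 3 single libraries was left out, at -0.15 to -0.14, and its value was 0.22 on log2 TPM.

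**Figure D2:**
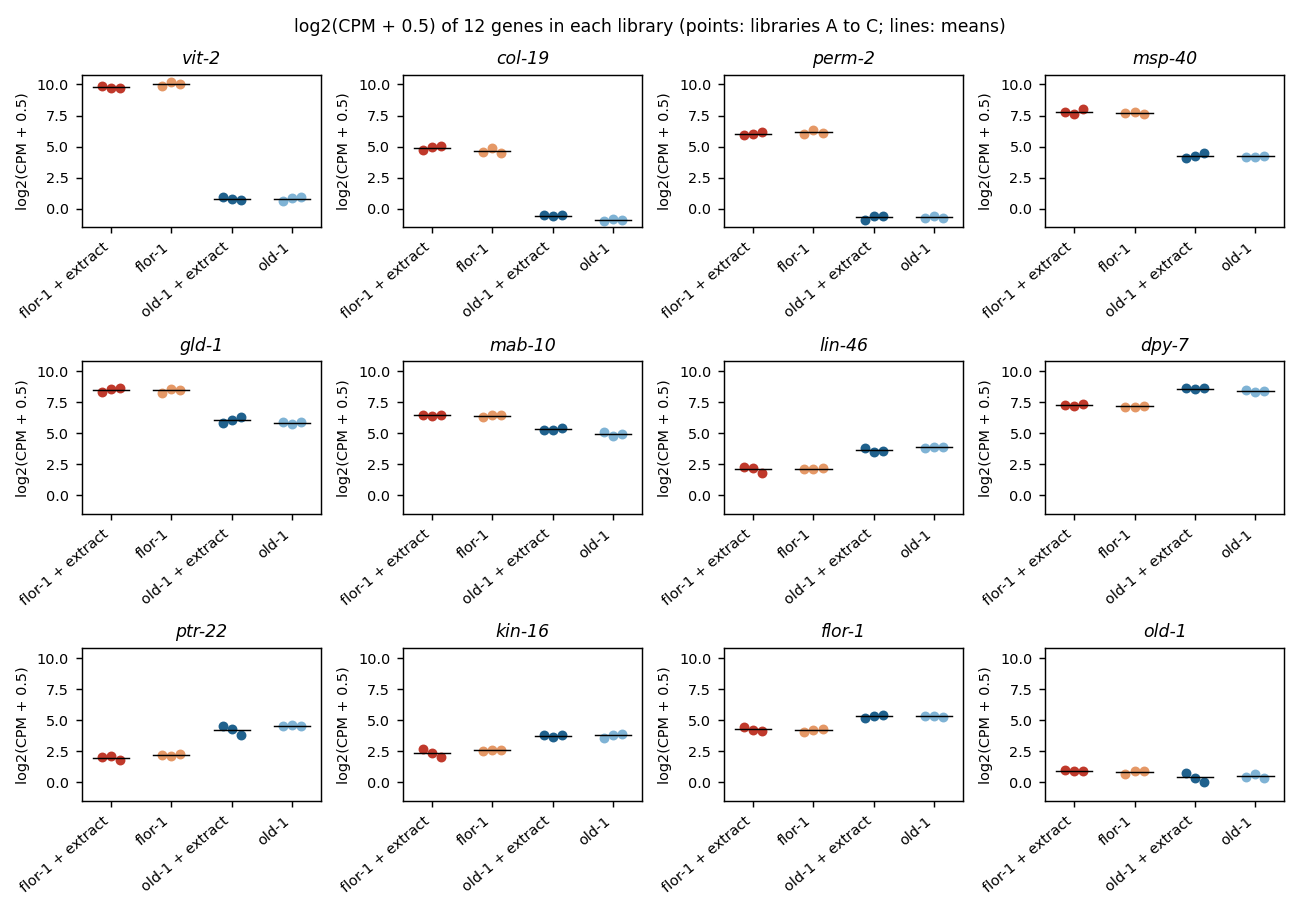
log2(CPM + 0.5) of 12 genes (y axis) in the libraries A to C of the 4 groups (x axis), with points for libraries and lines for means. *vit-2*, *col-19*, *perm-2*, *msp-40*, *gld-1* and *mab-10* were higher and *lin-46*, *dpy-7*, *ptr-22*, *kin-16* and *flor-1* lower in *flor-1* libraries without overlap, while *old-1* overlapped.

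Transcripts of cuticle collagens differed by class. The 4 adult cuticle collagen genes were all higher, with a median of 5.26 and values between 3.78 and 7.70. *col-19*, the collagen gene used as a marker of the adult epidermis, had 21.5, 27.3 and 31.6 CPM in *flor-1(icb93)* against 0, 0.116 and 0.196 CPM in *old-1(ok1273)*. *bli-1* and *bli-2*, collagens of the struts of the adult cuticle, averaged 495 and 460 CPM in *flor-1(icb93)* against 23.8 and 31.6 CPM in *old-1(ok1273)*. *bli-6*, a further collagen gene, followed with 456 against 15.6 CPM and a fold change of 4.98 ± 0.37. *col-7* had 318 counts in *flor-1(icb93)* and 3 in *old-1(ok1273)*, a ratio of 92.9 per total count with a 95% interval of 31.5 to 452.7 for counting error only. No *flor-1(icb93)* library overlapped an *old-1(ok1273)* library for any of these genes, as was so for 53.4% of all genes tested.

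Furrow collagens, which mark the annular furrows of the cuticle and are made in each larval molt, went the other way. Of 6 genes, 5 were lower and the median was -1.36. *dpy-7* had 141, 149 and 162 CPM in *flor-1(icb93)* against 329, 370 and 395 CPM in *old-1(ok1273)*, a fold change of -1.46 ± 0.05. *dpy-9* (-1.69 ± 0.07), *dpy-3* (-1.45 ± 0.08) and *dpy-8* (-1.27 ± 0.05) were similar. The sixth, *dpy-10*, was not called at 2.01 ± 0.74, with 19.2 to 63.7 CPM in *flor-1(icb93)* against 0 to 29.9 CPM in *old-1(ok1273)*. It was called, at 3.41, without replicate B of untreated *old-1(ok1273)*, the one library of that strain near 30 CPM.

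Over all 158 cuticle collagen genes tested, 52 were higher and 72 lower, beside 35.3% and 32.9% of all genes tested. The measures of the list differed in sign. The median fold change was -0.29 (0.04 on log2 TPM, with all genes at 0.30). The summed level was lower, at 29470 to 33760 CPM in *flor-1(icb93)* against 46280 to 51730 CPM in *old-1(ok1273)*. The mean log2(CPM + 0.5) was higher, at 4.59 to 4.73 in *flor-1(icb93)* against 3.99 to 4.16 in *old-1(ok1273)*. *col-88* (7.61 ± 0.13) and *col-140* (7.18 ± 0.13) were nearly silent in *old-1(ok1273)*, at 0.216 to 0.430 and 0.295 to 0.823 CPM. In contrast, *col-41*, at 911 to 1039 CPM in *old-1(ok1273)*, had 72.0 to 134 CPM in *flor-1(icb93)* and a fold change of -3.32 ± 0.12.

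Genes of the molting cycle showed less. Of 29 genes, 15 were lower and 4 higher, beside 32.9% and 35.3% of all genes tested. The median of -0.27 became 0.22 on log2 TPM, below the 0.30 by which all genes moved on that scale. The mean log2(CPM + 0.5) of the list was 6.51 to 6.56 in *flor-1(icb93)* and 6.42 to 6.90 in *old-1(ok1273)*, and the strains overlapped. *nas-36*, a metalloprotease gene needed to shed the old cuticle (-1.0 ± 0.06), the kinase gene *nekl-3* (-0.99 ± 0.06), the matrix gene *noah-2* (-0.78 ± 0.05) and the Grainyhead factor *grh-1* (-0.67 ± 0.05) were lower without overlap. Lack of overlap was found for 53.4% of all genes tested. The 4 genes that were higher, named after their values were seen, were *sym-1* (0.82), *rol-3* (0.65), *nekl-2* (0.42) and *bed-3* (0.27). The calls of *bed-3* and *sym-1* were lost when single libraries were left out, in 5 and 3 of 12 cases.

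Hedgehog-related and patched-related genes encode secreted and membrane proteins of the epidermis that cycle with the molts. Of 75 tested, 46 were lower and 13 higher, beside 32.9% and 35.3% of all genes tested. Their median was -0.40 (0.05 on log2 TPM, with all genes at 0.30). *ptr-22*, a patched-related gene, had 2.99, 3.90 and 4.31 CPM in *flor-1(icb93)* against 13.4, 22.4 and 23.8 CPM in *old-1(ok1273)*. *grd-10* (-2.08 ± 0.08) and *ptc-3* (-1.09 ± 0.05) were also lower, and *wrt-6* was higher at 1.44 ± 0.07.

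Among the 13 heterochronic genes, 3 were higher and 6 lower, beside 35.3% and 32.9% of all genes tested. Their median was -0.16 (0.31 on log2 TPM, near the 0.30 of all genes). The 3 higher genes were *mab-10*, the cofactor of LIN-29 (78.4 to 90.1 CPM in *flor-1(icb93)* against 27.1 to 41.8 CPM in *old-1(ok1273)*, 1.15 ± 0.07), *lin-29* itself (68.9 to 74.1 against 29.1 to 57.9 CPM, 0.65 ± 0.11) and *mab-3* (0.33 ± 0.06). *lin-46*, which acts at an earlier larval step, was the lowest at -1.91 ± 0.09, with 3.02 to 4.45 CPM in *flor-1(icb93)* against 11.05 to 14.5 CPM in *old-1(ok1273)*. *lin-42*, the worm Period gene whose transcript cycles with each molt, had -0.72 ± 0.06, and *lin-41* is given above. The calls of *daf-12* (-0.31), *dre-1* (-0.26) and *blmp-1* (-0.17) rested on overlapping libraries. *lin-28* (-0.16), *hbl-1* (-0.02), *lin-14* (0.19) and *lep-2* (0.13), of which the first 3 act in early larvae, were not called.

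Vulva and uterus genes were higher in 6 of 10 cases and lower in 1, beside 35.3% and 32.9% of all genes tested. Their median was 0.22. *cdh-3*, a cadherin gene of the vulva and anchor cell, had the largest fold change at 1.11 ± 0.14, followed by *lin-3*, the EGF-like signal of the anchor cell (0.80 ± 0.08), and *lin-11* (0.69 ± 0.08). *egl-38*, named after its value was seen, was the lower one at -0.62.

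**Figure D3:**
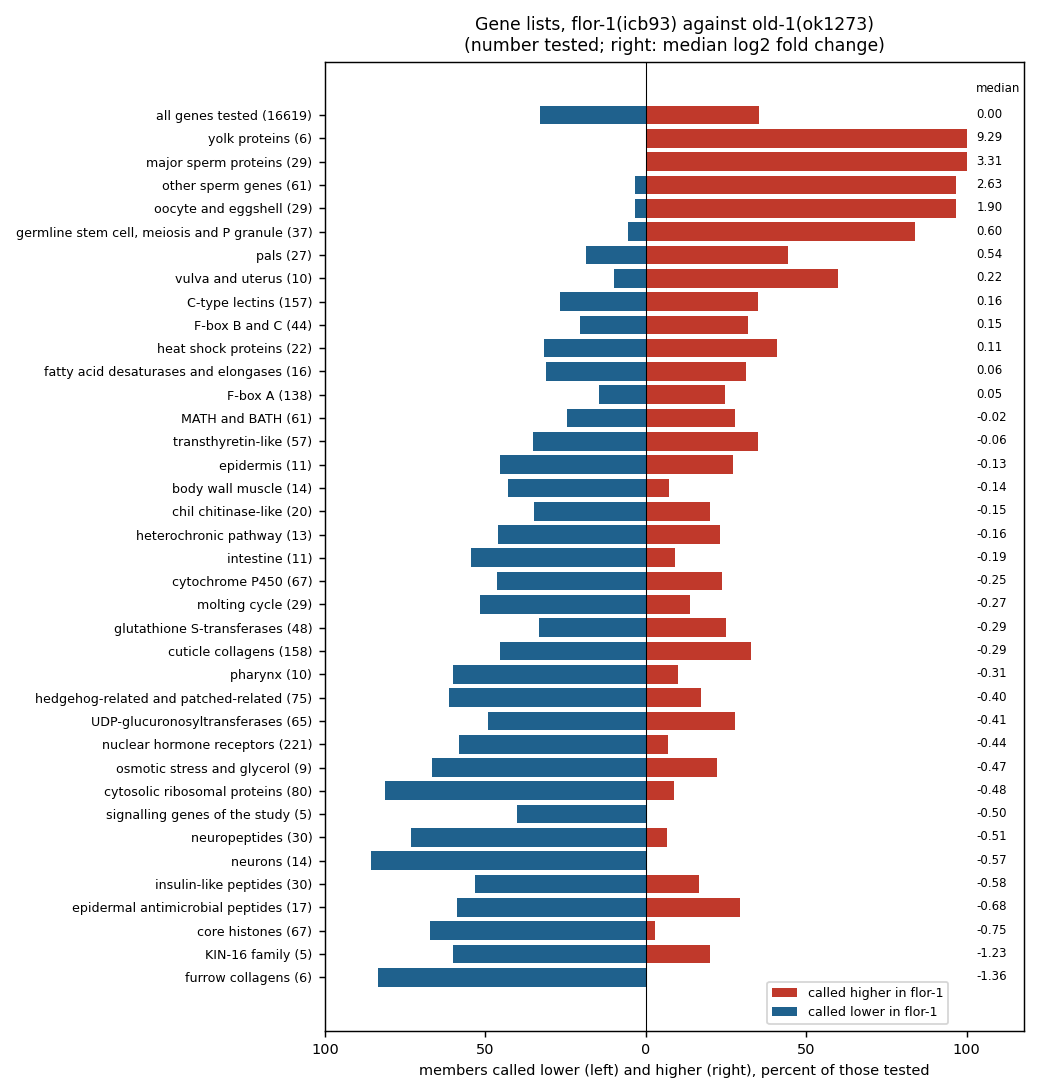
Share of tested members of each gene list called higher (right) and lower (left) in *flor-1(icb93)*, with the number tested in brackets and the median log2 fold change at the right edge. Yolk and major sperm protein genes were all called higher, neuronal genes were called lower in 12 of 14 cases. The top row gives all 16619 genes, and on log2 TPM every negative median plotted turned positive except those of the furrow collagen, KIN-16, histone, antimicrobial peptide, insulin-like, neuron, neuropeptide and ribosomal lists and of the signalling genes. All genes had a median of 0.30 on that scale.

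Markers of neurons, muscle, pharynx and intestine were detected in both strains. The mean log2(CPM + 0.5) of 14 neuronal genes was 4.73 to 4.83 in *flor-1(icb93)* and 5.12 to 5.24 in *old-1(ok1273)*, and 12 of them were lower and none higher, with a median of -0.57. *unc-17* and *cha-1*, which encode the vesicular transporter and the synthesis enzyme of acetylcholine, had -1.38 ± 0.07 and -1.19 ± 0.06, and *eat-4*, the glutamate transporter gene of synaptic vesicles, had -1.0 ± 0.06. *snb-1* (-0.02) and *unc-13* (0.09), named after their values were seen, were not called. FMRFamide-like neuropeptide genes were lower in 22 of 30 cases, with *flp-18* at -1.67 ± 0.06, and higher for *flp-10* (1.48 ± 0.08) and *flp-28* (0.68). On log2 TPM the medians of the neuronal and neuropeptide lists were -0.10 and -0.21, with all genes at 0.30.

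Body wall muscle, pharynx and intestine genes had medians of -0.14, -0.31 and -0.19. These became 0.29, 0.09 and 0.23 on log2 TPM, with all genes at 0.30. Lower members included *mup-2*, the muscle troponin T gene (-0.89 ± 0.06), and *cpr-1*, an intestinal cathepsin (-1.49 ± 0.10). Each of these lists held 1 gene called higher, named after its value was seen: *unc-22* in muscle (1.0), *phat-1* in pharynx (0.68) and *mtl-2*, a metallothionein gene, in intestine (1.11). The summed level of the muscle list was 17960 to 20700 CPM in *flor-1(icb93)* and 18220 to 18880 CPM in *old-1(ok1273)*, so that the strains overlapped.

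Genes of protein synthesis and chromatin were lower. Of 80 cytosolic ribosomal protein genes, 65 were lower and 7 higher, with a median of -0.48. Their summed level was 116900, 120200 and 128300 CPM in *flor-1(icb93)* against 134200, 156400 and 168800 CPM in *old-1(ok1273)* (lowest, median and highest). *rpl-23* (-1.74 ± 0.06), *rpl-25.1* (-1.72 ± 0.07), *rpl-32* (-1.16 ± 0.06) and *rps-16* (-1.15 ± 0.06) led the lower ones. Of 67 histone genes, many of them identical copies, 45 were lower and 2 higher, with a median of -0.75. The linker histone gene *his-24* (-1.52 ± 0.07) and the H2A gene *his-35* (-1.22 ± 0.07) were among the lower ones, and *his-70* (1.68 ± 0.09) and *his-74* (0.41) were the higher ones. Both lists are of short transcripts, with median lengths of 580 and 384 bases, and with offsets for effective length their medians were -0.67 and -1.25. With the same offsets all genes of 500 to 750 bases had a median of -0.32, and those of 300 to 500 bases one of -0.56.

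Transcript length moved with the fold change. Genes with mean transcripts under 300 bases had a median log2 fold change of 0.80, and those of 500 to 750 bases one of -0.16. From there the median increased with length to 0.31 in the 284 genes of at least 5000 bases. With offsets for effective length these medians were 0.26, -0.32 and 0.42. The 1234 genes of 300 to 500 bases had -0.11 from counts and, with the offsets, the lowest median of any length class, -0.56. The yolk genes are long, with a median of 5009 bases, and adult collagens have a median of 1150 bases, and with the offsets their medians were 9.4 and 5.31. The part of library type in them was not tested.

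**Figure D4:**
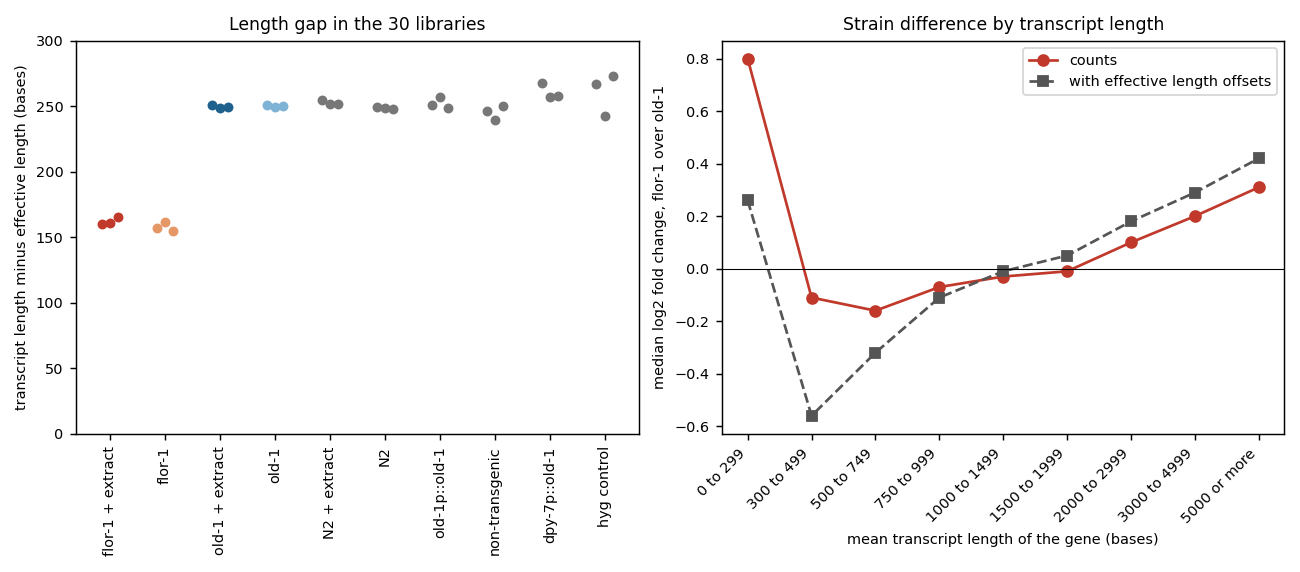
Left, transcript length minus effective length in bases for each of the 30 libraries (points), at 154.6 to 165.43 bases in *flor-1* and 248.66 to 251.24 bases in *old-1* libraries. Right, median log2 fold change of *flor-1* over *old-1* (y axis) by mean transcript length (x axis), from counts and with effective length offsets, with the highest median of counts, 0.80, under 300 bases.

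By chromosome, X-linked genes stood lowest among the nuclear chromosomes. Of 2367 X-linked genes tested, 25.3% were higher and 37.1% lower, with a median of -0.12. Over all genes tested, 35.3% were higher and 32.9% lower. Chromosome V was nearest to X, with 31.8% higher and 34.1% lower and a median of -0.04. Chromosome I was farthest, with 42.3% higher and 29.1% lower and a median of 0.12. The yolk genes *vit-1* to *vit-5* and the collagen gene *col-19* are X-linked and had fold changes of 4.74 to 12.95. Of 12 mitochondrially encoded genes, 7 were lower and 1 higher, with a median of -0.58.

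The 2 mutated genes and their family were measured next. *flor-1* had 16.15, 17.99 and 21.4 CPM in *flor-1(icb93)* against 36.2, 39.6 and 43.5 CPM in *old-1(ok1273)*, a fold change of -1.27 ± 0.07 with no overlap. The hygromycin marker controls, which carry no listed *flor-1* mutation, had 12.5 to 19.5 CPM, so the level of *flor-1* alone does not identify the mutant. *old-1* had 1.099, 1.38 and 1.54 CPM in *flor-1(icb93)* against 0.548, 0.818 and 1.22 CPM in *old-1(ok1273)*, and the difference of 0.45 ± 0.18 was not called (adjusted p 0.036, edgeR's quasi-likelihood test). A deletion allele can leave reads outside the deleted part, and the counts are per gene, so they do not show which part of *old-1* was read.

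Of the other KIN-16 family genes, *kin-15* and *kin-16*, which encode receptor tyrosine kinases of the epidermis, were lower in *flor-1(icb93)*. *kin-16* had 3.73 to 6.06 CPM in *flor-1(icb93)* against 11.7 to 14.2 CPM in *old-1(ok1273)* (-1.52 ± 0.10), and *kin-15* had 4.89 to 8.93 against 14.5 to 16.4 CPM (-1.23 ± 0.11). *R09D1.12* was higher at 1.95 ± 0.18, at 1.37 to 1.95 CPM against 0.235 to 0.443 CPM. *vab-3*, the Pax6 gene of the study, was lower at -0.52 ± 0.06, a call lost on log2 TPM at -0.05, and the channel genes *tax-2* (-0.50 ± 0.19) and *tax-4* (0.20 ± 0.32) were not called. *col-12*, whose promoter drives mCherry in the reporter, was lower at -0.85 ± 0.07. *chil-27*, the read-out gene of the reporter, did not pass the filter on low counts, with 13 counts in *flor-1(icb93)* and 1 in *old-1(ok1273)*, a ratio of 11.4 per total count with a 95% interval of 1.71 to 484 for counting error. It was called higher without that filter (2.72) and in the fit over 18 libraries (2.77), and N2 with extract had 3130 counts of it in 3 libraries.

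Families of the oomycete and intracellular pathogen responses went both ways, to be read against 35.3% higher and 32.9% lower over all genes tested. Values on log2 TPM are to be read against the median of 0.30 of all genes. Of 20 *chil* genes tested, which encode chitinase-like proteins, 4 were higher and 7 lower, with a median of -0.15 (0.12 on log2 TPM and 0.02 among genes of at least 1 CPM). The 4 higher were *chil-14* (2.89 ± 0.21), *chil-23* (1.86 ± 0.16), *chil-7* (1.63) and *chil-22* (0.58), of which *chil-7* and *chil-22* were named after their values were seen. *chil-24* (-0.81 ± 0.10) and *chil-1* (-0.91 ± 0.15) were among the lower, and *chil-1* became 0.07 on log2 TPM. Of 27 *pals* genes, 12 were higher and 5 lower, with a median of 0.54. On log2 TPM that median was 0.27, below the 0.30 of all genes. It was 0.21 over the 13 genes of at least 1 CPM and 0.14 in untreated libraries. *pals-26* had 1.44 to 2.17 CPM in *flor-1(icb93)* against 0.109 to 0.627 CPM in *old-1(ok1273)*, and *pals-24* had 36.2 to 42.0 against 10.5 to 22.9 CPM. *pals-22* (-0.61) and *pals-25* (-0.94), a regulator pair of the intracellular pathogen response, were lower together with *pals-6* (-1.51), *pals-19* (-0.46) and *pals-18* (-0.26), and the last was 0.27 on log2 TPM.

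Of 17 genes for epidermal antimicrobial peptides, 10 were lower and 5 higher, with a median of -0.68. That median was -0.88 on log2 TPM and -1.31 with offsets for effective length (12 lower, 1 higher), and 0.26 over the 3 genes with transcripts of at least 500 bases. The list has a median length of 375 bases, and all genes of 300 to 500 bases had -0.56 with the offsets. *nlp-33* had 64.2, 67.5 and 73.5 CPM in *flor-1(icb93)* against 237, 270 and 299 CPM in *old-1(ok1273)* (-2.15 ± 0.06), and *nlp-24* was at -1.53 ± 0.08. *nlp-28* was nearly absent from *flor-1(icb93)*, at 0 to 0.112 CPM against 1.25 to 3.23 CPM. The 5 higher, partly named after their values were seen, were *cnc-7* (2.05), *cnc-9* (1.57), *nlp-29* (0.67), *nlp-34* (0.62) and *nlp-30* (0.26). Of these, *nlp-29* and *nlp-34* were -0.01 and -0.48 with offsets for effective length, *nlp-34* was -0.06 on log2 TPM, and *cnc-9* lost its call in 5 of 12 cases when 1 library was left out. Lysozyme genes *ilys-2* (-4.38 ± 0.28) and *lys-10* (-3.96 ± 0.22) were lower, as were *grsp-1* (-3.84 ± 0.15), of a glycine-rich secreted protein, and *C25G4.3* (-4.78 ± 0.32), which the annotation used here gives no name.

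C-type lectin genes went both ways, with 55 higher and 42 lower of 157, beside 35.3% higher and 32.9% lower over all genes tested. Among them, *clec-87* was at 3.27 ± 0.12 and *clec-79* at 2.40 ± 0.09. Metabolic genes included *elo-8*, of a fatty acid elongase (3.37 ± 0.12), *fat-5*, of a desaturase (-2.05 ± 0.17), and the glucuronosyltransferase genes *ugt-8* (-2.36 ± 0.08) and *ugt-16* (-2.24 ± 0.06). Nuclear hormone receptor genes were lower in 129 of 221 cases and higher in 15. Their median was -0.44 and became 0.01 on log2 TPM, with all genes at 0.30. Of 30 insulin-like peptide genes, 16 were lower and 5 higher, with a median of -0.58. That median was -0.93 with offsets for effective length (22 lower, 2 higher) and -0.30 on log2 TPM. The list has a median length of 484 bases, and all genes of 300 to 500 bases had -0.56 with the offsets. *ins-33* (-2.53 ± 0.12) and *ins-35* (-2.23 ± 0.12) led the lower insulin-like genes. The 5 higher, named after their values were seen, were *ins-32* (2.13), *ins-37* (2.09), *ins-31* (2.02), *ins-18* (0.38) and *ins-34*. *ins-34* had 83 counts in *flor-1(icb93)* and 3 in *old-1(ok1273)*, a ratio of 24.2 per total count with a 95% interval of 8.01 to 119.9 for counting error. The call of *ins-31* was lost in 8 and that of *ins-18* in 1 of 12 cases with 1 library left out. Among chaperones, the mitochondrial *hsp-60* was lower (-1.32 ± 0.08) and *hsp-70* higher (1.78 ± 0.15).

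A set of genes was silent in one strain. At 0 counts in all 6 *old-1(ok1273)* libraries and at least 5 in each *flor-1(icb93)* library were 49 genes, and 46 of them had counts in at least 1 of the other 18 libraries. *ule-5*, a gene of the uterine lumen, had 3240 counts in *flor-1(icb93)*, against 68872 counts over the other 18 libraries, 215 of these counts in the 6 N2 libraries. *Y62H9A.5* beside it on X had 1833 counts in *flor-1(icb93)*, against 75548 over those 18 libraries and 196 in N2. Against a floor of 3 counts over the 6 *old-1(ok1273)* libraries, *ule-5* was at least 946-fold and *Y62H9A.5* at least 535-fold higher in *flor-1(icb93)*. In the reverse direction only *vha-3* met the rule.

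Of the 49, 4 had counts in every N2 library as well as in every *flor-1(icb93)* library. *C56A3.4* (chromosome V, 13550516 to 13551754, WBcel235) had 16.3 to 17.2 CPM in *flor-1(icb93)*, at least 856-fold above the same floor in *old-1(ok1273)*. Its neighbour *C56A3.5* (13551967 to 13553373) had 42.3 to 45.9 CPM in *flor-1(icb93)* and was at least 2223-fold higher. *Y102A5C.36*, also on V, was at least 397.5-fold higher. These 3 were also at 0 in the 3 *old-1p::old-1* libraries and their 3 non-transgenic controls, whereas the 3 *dpy-7p::old-1* libraries had 21.8 to 22.8 CPM of *C56A3.4*. The paper describes *old-1p::old-1* overexpression in *old-1(ok1273)* animals, while its strain list gives that transgene without the deletion. Whether the *old-1p::old-1* libraries and their controls carry the deletion was not tested. The fourth, *efn-3*, an ephrin gene on X named by the same rule, had counts in all 18 other libraries and was at least 189.8-fold higher.

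A further 3 of the 49 had counts in no other library of the series. *F45H11.11*, with a transcript of 174 bases, had 2.20 to 3.37 CPM in *flor-1(icb93)*, and *C13F10.6* had 1.70 to 8.27 CPM. Each overlaps another gene on its own strand, so that reads of the pair cannot be told apart with certainty. The third was a copy of the small heat shock gene *hsp-16.1*. Summed over its 2 copies, *hsp-16.1* averaged 190.1 ± 35.9 CPM over the 6 *flor-1(icb93)* libraries, against 130.4 ± 53.8 CPM over the 6 of *old-1(ok1273)* (mean ± SD), and the libraries of the strains overlapped.

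The reverse case, *vha-3*, encodes a membrane subunit of the vacuolar proton pump. It was at 0 in *flor-1(icb93)* and at 15.8 to 36.2 CPM in *old-1(ok1273)*, at least 1563-fold lower against the floor, and had counts in all 18 other libraries. *vha-2* is a near-identical gene, and *vha-2* and *vha-3* together averaged 724.8 ± 62.7 CPM (mean ± SD, 653.1 to 796.4) over the 6 *flor-1(icb93)* libraries, against 1120 ± 99.7 CPM (994.1 to 1234) over the 6 of *old-1(ok1273)*. The pair was thus lower by less than the single gene, and without overlap. *F17C8.9* on chromosome III was at 0 in 5 of 6 *flor-1(icb93)* libraries and at 21.35 to 27.5 CPM in *old-1(ok1273)*, with 3.18 to 20.8 CPM in the 12 transgene and control libraries.

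The strain difference was then compared with and without extract. Among the 11109 called genes with a value in both conditions, 11059 (99.55%) had the same sign in the 3 against 3 untreated and the 3 against 3 extract libraries, and the fold changes correlated across 15969 genes with Pearson's r = 0.925 and Spearman's rho = 0.868. The calls came from a fit over these same libraries, so that a shared sign is largely built into that count. Genes are not independent replicates, and each condition's libraries of a strain share its library type and may share its stage. The size of the difference varied between extract and untreated libraries for 3527 genes (21.2%), called on the interaction of strain and extract. The difference of the extract responses, *flor-1(icb93)* minus *old-1(ok1273)*, was positive for 1436 of them and negative for 2091. That split was 574 to 2943 on log2 TPM. A positive difference can also come from a fall with extract in *old-1(ok1273)* alone. Between extract and untreated libraries of a strain, 26 of 16619 genes were called in *flor-1(icb93)*, 7 higher and 19 lower with extract. In *old-1(ok1273)* 5558 were called, 3008 higher and 2550 lower. Adult cuticle collagens there summed to 57.8 to 91.6 CPM with extract and 28.7 to 36.2 CPM untreated. Yolk genes summed to 10.9 to 14.35 and 5.22 to 7.83 CPM. Major sperm protein genes overlapped, at 274.8 to 388.6 and 270.7 to 280.8 CPM. In *flor-1(icb93)* the conditions overlapped for all of these lists. The parts of extract and of stage in the calls were not tested.

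Some genes were called higher with extract in *old-1(ok1273)* and were not called in *flor-1(icb93)*. *thn-1*, of a thaumatin-like protein, had 0.316, 0.433 and 0.448 CPM in *flor-1(icb93)* with extract (lowest, median and highest) and 0.398, 0.423 and 0.590 CPM untreated. In *old-1(ok1273)* it had 33.2, 59.6 and 68.5 CPM with extract and 0.604, 0.725 and 0.946 CPM untreated, and N2 with extract had 23.6 to 58.2 CPM. Its strain difference was -7.23 with extract and -0.84 without, and the difference between the extract responses was -6.42 ± 0.82 (adjusted p 1.5e-05, edgeR's quasi-likelihood test). *lact-6* and *clec-70*, chosen after their values were seen, behaved alike, with extract responses of -0.88 and 0.41 in *flor-1(icb93)* against 7.01 and 5.13 in *old-1(ok1273)*. Untreated, both were slightly higher in *flor-1(icb93)*, at 0.86 and 0.73, so that the sign of their strain difference turned with the condition.

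**Figure D5:**
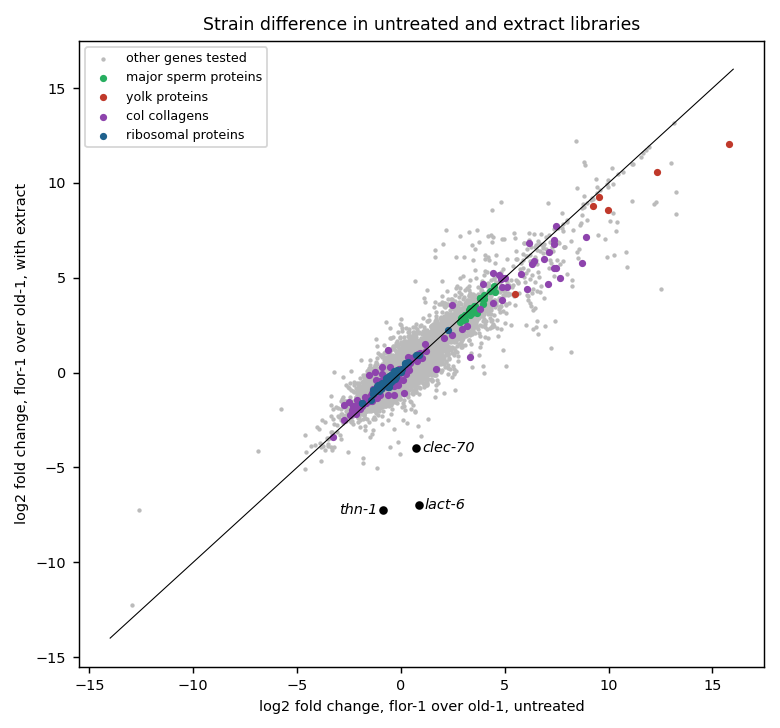
log2 fold change of *flor-1* over *old-1* in extract libraries (y axis) against untreated libraries (x axis), 1 point a gene, with the line of equality and 4 gene families coloured. Most genes lay along the line, and *thn-1*, *lact-6* and *clec-70* lay far below it at -7.23, -7.0 and -3.97 on the y axis.

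Of the adult collagen genes 2 of 4, and of the yolk genes 2 of 6, were called on the interaction, each with a smaller response in *flor-1(icb93)*. Over all genes the share was 21.2%, and no more is read from counts this small. *bli-6* averaged 467.8 ± 57.4 CPM with extract and 444.9 ± 25.02 CPM untreated over 3 *flor-1(icb93)* libraries each, against 25.5 ± 12.2 and 5.6 ± 2.03 CPM in *old-1(ok1273)* (mean ± SD). In addition, *bli-1* and *lin-29* had extract responses of 0.09 and -0.02 in *flor-1(icb93)* against 1.66 and 0.75 in *old-1(ok1273)*. The mean log2(CPM + 0.5) of adult cuticle collagens was 5.75 to 6.13 in *flor-1(icb93)* and 1.45 to 2.38 in *old-1(ok1273)*. Ribosomal protein genes were called on the interaction in 26 of 80 cases and F-box A genes in 28 of 138 cases, beside 21.2% of all genes. The F-box A share was thus near that of all genes. All of these calls had a positive difference, *flor-1(icb93)* minus *old-1(ok1273)*. The same held for transthyretin-like genes (18 of 57) and neuropeptide genes (8 of 30). The germline stem cell, meiosis and P granule list had 1 positive and 10 negative calls. In *old-1(ok1273)* the summed ribosomal level was 134200 to 147800 CPM with extract and 164900 to 168800 CPM untreated. The summed F-box A level there was 524.9 to 556.7 against 640.2 to 688.1 CPM. In *flor-1(icb93)* these levels were 116900 to 120200 against 119600 to 128300 CPM, and 745.9 to 776.2 against 705.7 to 762.3 CPM. The strain median of F-box A genes was -0.17 in untreated and 0.33 in extract libraries.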

How the data were processed

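Reads of each library had been assigned by the authors to WormBase transcripts (release WS283) with kallisto, whose estimated counts per transcript were deposited without normalization between libraries. These expected counts were summed per gene through the Ensembl 115 annotation (WBcel235) and rounded. Names of 30413 and sequence names of 6631 of the 37058 transcripts led to 19988 genes, leaving 2 ambiguous and 12 unmatched. TPM was computed from counts and effective lengths. Genes passing filterByExpr (min.count 5, min.total.count 15) were scaled by TMM. Strains were compared in edgeR 4.0.16 (R 4.3.3), by its two-sided quasi-likelihood F test, over the 12 libraries with extract as covariate and 9 residual degrees of freedom. Self-tests on simulated counts were run first. The comparison, gene lists and alternatives were chosen with earlier results of these data known.

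Named genes were up to 12 higher and 12 lower genes with the largest fold change (mean of at least 1 CPM, no overlap), up to 4 called members of each list by adjusted p, all yolk, adult collagen, KIN-16, heterochronic and signalling genes, and genes at 0 in one strain with at least 5 counts in each library of the other. The mitochondrial list matched no symbols and was replaced by the chromosome's 12 genes. No sequence is shown. Alternatives used DESeq2 1.42.0, limma 3.58.1 (log2 TPM, pseudocount 1), other scalings, filters, length offsets, samples and thresholds, and each library left out. Precision was limited by 6 libraries a strain.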

Additional observations from a re-analysis of the deposited data

Results flagged for a closer look

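The extract response differed between *flor-1(icb93)* and *old-1(ok1273)* for 3527 genes, by the interaction term of edgeR's quasi-likelihood test. Extract response means the difference between extract and untreated libraries of a strain, and its cause was not tested. Values below are log2 differences of the extract response, *flor-1(icb93)* minus *old-1(ok1273)*, over 3 libraries a group, for the named genes called on it, some of which were named after their values were seen.

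Genes called higher with extract in *old-1(ok1273)* included *lact-6* (-7.89), *thn-1* (-6.42) and *clec-70* (-4.73). Stage genes of the cuticle, yolk and vulva had *bli-6* at -2.10, *bli-1* at -1.57, *bli-2* at -0.95, *vit-6* at -1.40, *vit-1* at -1.38 and *cdh-3* at -0.92. Timing genes had *lin-29* at -0.77, *hbl-1* at -0.59, *daf-12* at -0.48, *lin-14* at -0.41, *dre-1* at -0.34, *mab-10* at -0.33, *lin-41* at -0.26 and *lin-28* at 0.31. Cuticle, matrix and epidermal genes had *sym-1* at -1.61, *rol-3* at -1.11, *elt-1* at -0.34, *nekl-3* at 0.33 and *dpy-9* at 0.42. Metabolic, chaperone and muscle genes had *unc-22* at -1.61, *fat-5* at -1.1, *hsp-70* at -0.92, *cpr-1* at -0.47, *hsp-60* at -0.36 and *rpl-23* at 0.28.

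Immune genes went both ways, with *clec-79* at -0.42, *nlp-24* at -0.38, *chil-22* at 0.64, *clec-87* at 0.68, *pals-24* at 1.02, *pals-6* at 1.29 and *nlp-28* at 2.77. The rest were *ins-35* (-0.57), *ins-33* (0.66), *flp-28* (0.52), *snb-1* (0.26) and *htp-1* (0.28). *F17C8.9* had 5.36, a value that depends on the prior count, since untreated *flor-1(icb93)* libraries had no count of it and 1 extract library had all of them. *nlp-28* likewise rests on few counts in *flor-1(icb93)*.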

How the results depend on the processing

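Over the alternatives, 9864 to 11678 genes were called between the strains, apart from 4162 when a log2 fold change of 1 or more either way was required, and 2352 to 3607 on the interaction. Leaving out each library gave 10903 to 11289 and 3045 to 3572. Of 153 named genes, 113 kept their sign and call in every alternative that gave them a value. Only 130 had a value with transcripts under 500 bases left out, and 143 at a mean of 1 CPM or more. Replicate letters did not pair the samples (correlations of same-letter deviations -0.09 to 0.12), and the replicate block gave 11024 and 3434 calls.

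The scale of log2 TPM turned the sign of *lin-28* (0.25), *hbl-1* (0.31), *daf-12* (0.03), *dre-1* (0.24), *blmp-1* (0.32), *chil-1* (0.07), *htp-1* (0.16), *fog-3* (0.22), *pals-18* (0.27), *snb-1* (0.26) and *nlp-34* (-0.06). The median over all genes moved by 0.30 on that scale. Effective length offsets gave *hbl-1* 0.01, *nlp-29* -0.01 and *nlp-34* -0.48. Fitting 18 libraries gave *hbl-1* 0.02 and *snb-1* 0.01. Untreated libraries alone gave *hbl-1* 0.26, *tax-4* -0.34, *lact-6* 0.86 and *clec-70* 0.73, and extract libraries alone *lin-14* -0.02, *snb-1* 0.11 and *unc-13* -0.01. With single libraries left out, *hbl-1* ranged over -0.10 to 0.08 and *snb-1* over -0.08 to 0. The causes were not tested. The call of *clec-70* was lost with DESeq2 (-1.64) and on log2 TPM (-1.23). Depth limits genes with few counts, such as *col-7* and *ins-34*.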
